A study of Mus musculus with 5 samples.

Results

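The D and E cyclins and the kinases that they activate in the G1 phase of the cell cycle were measured in ID8 cells grown in serum or in tumour ascites. The members were 8 genes: the D cyclin genes Ccnd1, Ccnd2 and Ccnd3, the E cyclin genes Ccne1 and Ccne2, and the kinase genes Cdk2, Cdk4 and Cdk6. Each probe set annotated to exactly 1 of these genes was taken, whatever its values, which gave 18 of the 22626 probe sets on the array that are not controls. All 8 genes had at least 1 probe set, Ccnd2 had 7, Ccnd1 and Cdk4 had 3 each, and the other 5 genes had 1. No filter on signal was applied, so all 18 were tested.

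ID8 is a mouse epithelial ovarian cancer line, here the parental line with no allele or agent named in the labels. One group of 3 arrays (FBS replicates 1, 2 and 3) came from cells in DMEM with 10% fetal bovine serum. The other group of 2 arrays (ascites replicates 2 and 3) came from cells in DMEM with 10% ascites fluid from mice that bore ID8 tumours, for 7 days. The sources used here do not settle whether the ascites medium also held serum, how long the serum cultures grew, whether the ascites of several mice was pooled, or whether the replicates were separate cultures. If they were not, the p-values measure only a technical spread between arrays.

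In G1, D cyclins bind CDK4 or CDK6 and start the phosphorylation of the retinoblastoma protein, RB. Phosphorylated RB releases E2F transcription factors, which switch on genes of DNA replication together with the E cyclin genes, and cyclin E with CDK2 then completes the phosphorylation of RB and starts S phase. INK4 inhibitors bind CDK4 and CDK6, whereas p21 and its relatives bind cyclin-CDK complexes more broadly. D cyclin genes respond to growth signals, while E cyclin genes follow the cell cycle itself.

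Signals are the deposited log2 values, changes are ascites minus FBS on the log2 scale, and adjusted p-values come from limma with the Benjamini-Hochberg method over all 22626 probe sets. FBS replicates 1 and 2 were nearly alike, with an SD of 0.13 between them over probe sets, and 0 probe sets differed 2-fold. FBS replicate 3 differed from FBS replicate 1 by an SD of 0.411 and from FBS replicate 2 by 0.406, so each result below is read with that array in view. Between the ascites arrays the SD was 0.236. Of the 10 epithelial and ovarian surface markers, Krt8, Krt18, Krt19, Wt1, Upk3b, Msln and Bnc1 had FBS signals above 10, and Krt18 and Krt19 fell in ascites, while Cdh1 and Epcam read 6.05 or less on every array. The median signal of 9 immune markers was 5.50 to 5.57 on the FBS arrays and 5.47 to 5.71 on the ascites arrays, and none of them passed the threshold.

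In ascites 1 of the 8 genes rose. Of all 12393 genes 2.46% rose, by 1 main probe set per gene (the one with the highest mean). Ccnd1 rose in all 3 of its probe sets, by 2.26-fold to 2.61-fold. Every Ccnd2 probe set was higher in both ascites arrays than in any FBS array, by 1.36-fold to 1.59-fold, but 0 of the 7 passed the threshold. Over all probe sets, 19.3% were higher in ascites without overlap and 17.2% lower. The single probe sets of Ccnd3 and Cdk2 read lower in both ascites arrays, and the single one of Cdk6 read higher. Cdk4 differed little, and for the E cyclin genes FBS replicate 3 stood far above the other 4 arrays. None of these genes passed.

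In counts, 3 of the 18 member probe sets rose and 0 fell by limma's adjusted p, and 12 had an unadjusted p below 0.05, as did 5188 of all probe sets (22.9%). By adjusted p, 2.38% of all probe sets rose and 1.96% fell. Of the 12, 10 belong to Ccnd1 and Ccnd2. The 3 are probe sets of 1 gene and are not independent of each other. The groups did not overlap for 14 members, 11 of them higher and 3 lower in ascites, where 19.3% of all probe sets were higher and 17.2% lower without overlap. Of those 11, 10 belong to Ccnd1 and Ccnd2. The median change was 0.51 over the member probe sets and 0.01 over all probe sets, and by 1 main probe set per gene (the one with the highest mean) it was -0.26 over the 8 genes and 0.00 over all 12393 genes.

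**Figure D1:**
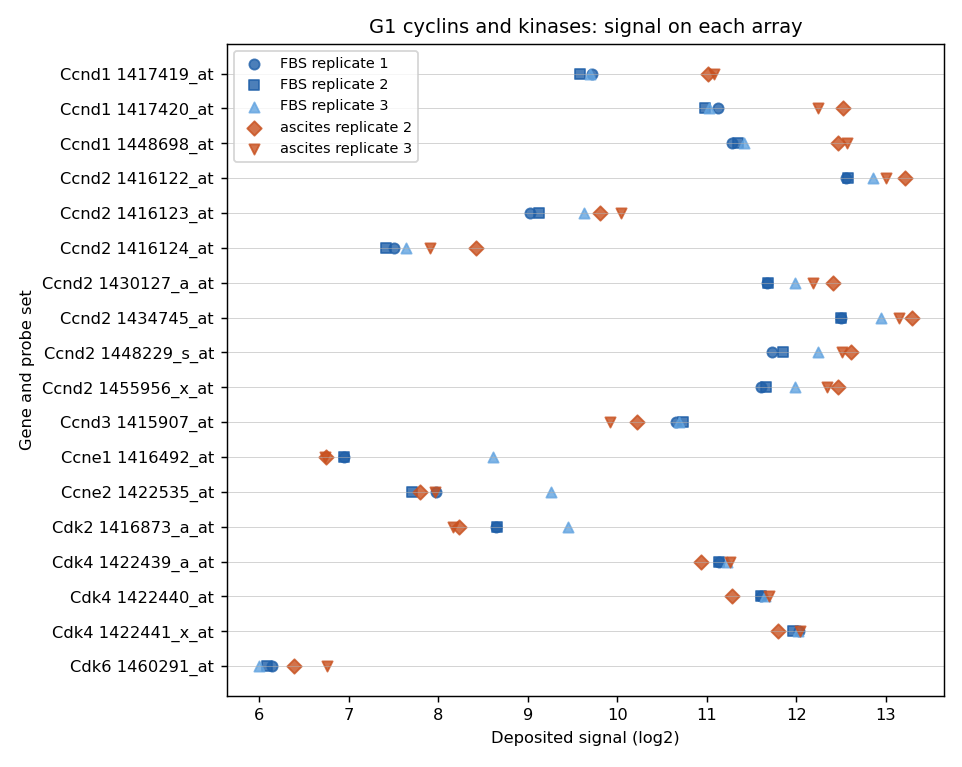
Deposited log2 signal (x axis) of each of the 18 member probe sets (y axis) on the 5 arrays, 1 symbol per array. Both ascites symbols lie to the right of all FBS symbols for the Ccnd1, Ccnd2 and Cdk6 probe sets and to the left for Ccnd3, Ccne1 and Cdk2, and FBS replicate 3 lies far to the right for Ccne1 (8.61), Ccne2 (9.26) and Cdk2 (9.45).

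Ccnd1 encodes cyclin D1, the D cyclin most often amplified or overexpressed in human epithelial tumours. Probe set 1448698_at, its main one, read 11.28, 11.35 and 11.41 in FBS replicates 1, 2 and 3, and 12.47 and 12.57 in ascites replicates 2 and 3. Probe set 1417419_at read 9.72, 9.58 and 9.69 in FBS against 11.01 and 11.08 in ascites. Probe set 1417420_at read 11.13, 10.98 and 11.03 in FBS against 12.52 and 12.24 in ascites. In each of them the ascites arrays lay above all FBS arrays by far more than either group's spread, and FBS replicate 3 lay with the other FBS arrays.

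The log2 change of Ccnd1 was 1.17 (SE 0.07, limma adjusted p = 0.0173) at 1448698_at, 1.38 (SE 0.07, adjusted p = 0.0152) at 1417419_at and 1.33 (SE 0.11, adjusted p = 0.0215) at 1417420_at. The main probe set's 95% confidence interval ran from 1.99-fold to 2.56-fold higher. Leaving out FBS replicate 3 hardly moved it (1.21, adjusted p = 0.0122). The call was lost when any other array was left out (leaving an adjusted p of 0.149 and 0.153 after FBS replicates 1 and 2, and of 0.0946 and 0.131 after ascites replicates 2 and 3), although the change stayed between 1.12 and 1.22 under every alternative and its unadjusted p stayed below 0.05.

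Ccnd2 encodes cyclin D2, which can stand in for cyclin D1 at CDK4 and CDK6. Its main probe set, 1434745_at, read 12.50, 12.50 and 12.95 in FBS replicates 1 to 3 and 13.29 and 13.15 in ascites replicates 2 and 3. FBS replicate 3 lay between the other FBS arrays and the ascites arrays, here and in the other 6 probe sets, and over the 7 it exceeded the mean of FBS replicates 1 and 2 by 0.17 to 0.56. At 1455956_x_at, which had the lowest p of the gene, the signals were 11.60, 11.66 and 11.98 in FBS and 12.47 and 12.34 in ascites. The groups did not overlap in any of the 7.

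The change of Ccnd2 was 0.57 (SE 0.17, limma adjusted p = 0.156) at the main probe set and 0.66 (SE 0.14, adjusted p = 0.0854) at 1455956_x_at, and over the 7 it ran from 0.44 to 0.67 with adjusted p between 0.0854 and 0.18. All 7 had an unadjusted p below 0.05. Without FBS replicate 3, 5 of the 7 probe sets passed, the main one at 0.72 (adjusted p = 0.021), in a comparison where 7.48% of all probe sets rose. The spread of FBS then rests on 2 nearly alike arrays. Probe sets whose names end in _s_at or _x_at can also bind related transcripts, and those of Ccnd2 gave changes within the range of the others.

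Ccnd3 encodes cyclin D3, the D cyclin best known from blood cell lineages and from cells that leave the cycle to differentiate. Its single probe set, 1415907_at, read 10.66, 10.73 and 10.69 in FBS and 10.22 and 9.92 in ascites. Both ascites arrays lay below the FBS arrays, which had an SD of only 0.04. The change was -0.62 (SE 0.11, 95% confidence interval -0.91 to -0.34) with an adjusted p of 0.059, which misses the threshold. It passed with array weights (adjusted p = 0.0243) and with the dimmest probe sets left out (0.0465), and not without FBS replicate 3 (0.0717). With array weights 3728 probe sets passed in all, and with the dimmest left out 1350, against 982 in the main fit.

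The D cyclin genes were also compared with each other. On each array, the main Ccnd1 signal minus the Ccnd3 signal was 0.62, 0.62 and 0.72 in FBS and 2.25 and 2.65 in ascites, so that this difference grew by 1.80. Ccnd2 minus Ccnd3 grew by 1.19, and Ccnd1 minus Ccnd2 by 0.60, from -1.22, -1.15 and -1.54 in FBS to -0.82 and -0.58 in ascites. The groups did not overlap in any of these 3 comparisons. For the differences from Ccnd3 this followed from the genes' own signals, which separated the groups in opposite directions. For each difference, an exact permutation test of the 3 FBS against the 2 ascites arrays gave p = 0.1. That is the smallest p this test can give with so few arrays, so it cannot settle whether the differences changed. The 3 differences are built from the same 3 genes and are not independent of each other. They compare changes, not amounts of the transcripts, since probe sets differ in how strongly they bind.

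**Figure D2:**
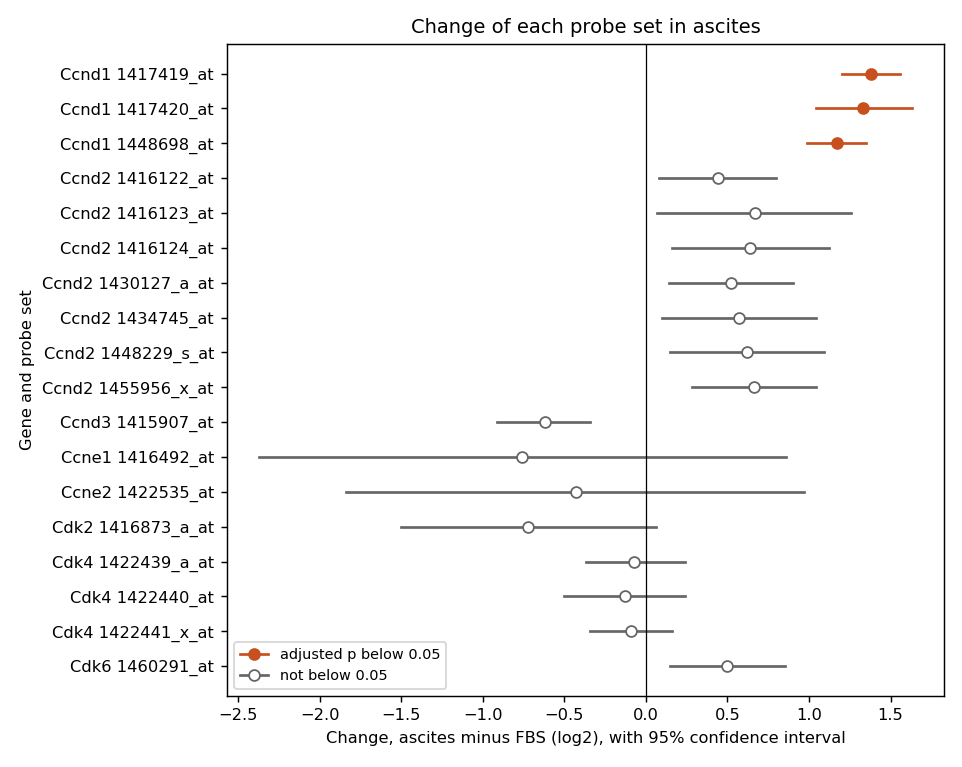
Log2 change in ascites (x axis) of each of the 18 probe sets (y axis), with its 95% confidence interval from limma, filled where the adjusted p is below 0.05. The 3 Ccnd1 intervals lie above 0.99, the 7 Ccnd2 intervals lie above 0 without passing the adjusted threshold, and the intervals of Ccne1, Ccne2, Cdk2 and Cdk4 include 0.

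The E cyclin genes, whose products activate CDK2 at the entry to S phase, had a single array far above the rest. Ccne1 (1416492_at) read 6.95, 6.95 and 8.61 in FBS replicates 1, 2 and 3, and 6.75 and 6.74 in ascites. Ccne2 (1422535_at) read 7.97, 7.71 and 9.26 in FBS, and 7.80 and 7.96 in ascites. FBS replicate 3 lay above the mean of the other FBS arrays by 1.66 for Ccne1 and 1.42 for Ccne2, while only 1.0% of all probe sets (227) lay at least 1 above it there.

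Against all FBS arrays the change of Ccne1 was -0.76 (SE 0.60, limma adjusted p = 0.516) and that of Ccne2 was -0.43 (SE 0.52, adjusted p = 0.672). The confidence intervals were wide, from 0.193-fold to 1.81-fold for Ccne1 and from 0.279-fold to 1.96-fold for Ccne2. Without FBS replicate 3 the change of Ccne1 shrank to -0.20 and passed (adjusted p = 0.0476), with both remaining FBS arrays at 6.95. That of Ccne2 turned to 0.04 (adjusted p = 0.86), and its groups overlapped. Apart from FBS replicate 3, the Ccne1 signals also lay below the array medians, and how far above background they lie is unknown.

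Cdk2, the kinase partner of the E cyclins, had FBS replicate 3 apart in the same direction and both ascites arrays lowest. Its probe set, 1416873_a_at, read 8.65, 8.66 and 9.45 in FBS and 8.23 and 8.17 in ascites. The change was -0.72 (SE 0.29, limma adjusted p = 0.249), and without FBS replicate 3 it was -0.46 and passed (adjusted p = 0.0207). Ccne1 and Cdk2 were thus the 2 members that fell when that array was left out, in a comparison where 8.25% of all probe sets fell.

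Cdk4, the kinase that D cyclins activate in most cells, differed little between the media. Its main probe set, 1422441_x_at, read 12.03, 11.96 and 12.02 in FBS and 11.79 and 12.04 in ascites. Ascites replicate 2 was the lowest array and ascites replicate 3 the highest in each of the 3 Cdk4 probe sets, so the groups overlapped. The change was -0.09 (SE 0.09, limma adjusted p = 0.625), with a confidence interval of 0.791-fold to 1.12-fold. The other probe sets, 1422439_a_at and 1422440_at, gave -0.07 and -0.13, with intervals from 0.774-fold to 1.18-fold and from 0.708-fold to 1.18-fold, and all 3 changes were slightly above 0 without ascites replicate 2.

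Cdk6, the other partner of the D cyclins, was measured by 1 probe set, 1460291_at. It read 6.14, 6.09 and 6.0 in FBS and 6.39 and 6.76 in ascites, so both ascites arrays were higher. The change was 0.50 (SE 0.13, limma adjusted p = 0.122), and it did not pass under any of 12 alternatives. The signals lay below the array medians of 7.4 to 7.47 and carry no detection call, so whether Cdk6 was detected is not known and its change is left on the log2 scale.

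**Figure D3:**
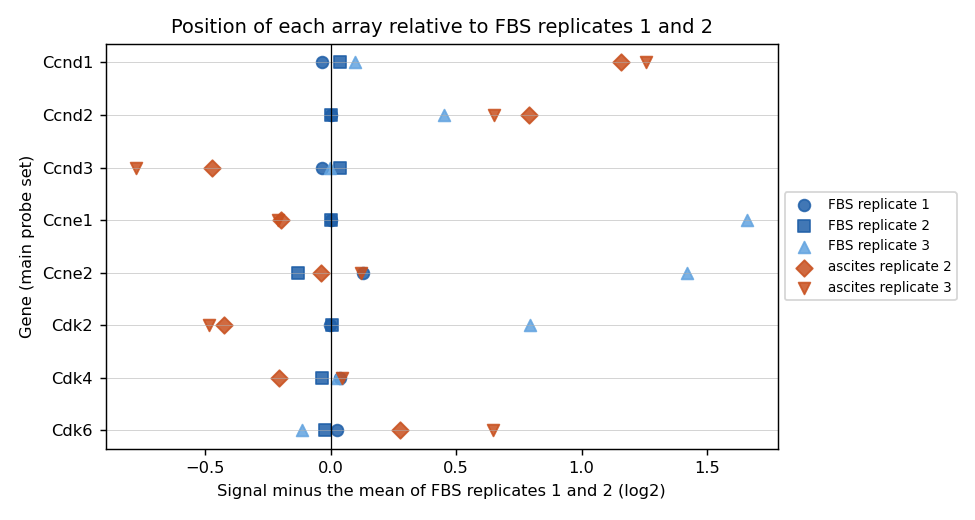
Signal of each array minus the mean of FBS replicates 1 and 2 (x axis, log2) for the main probe set of each of the 8 genes (y axis). FBS replicate 3 stands far to the right for Ccne1 (1.66), Ccne2 (1.42) and Cdk2 (0.79), part of the way to the ascites arrays for Ccnd2, and near 0 for Ccnd1, Ccnd3 and Cdk4.

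For 5 of the 8 genes (Ccnd3, Ccne1, Cdk2, Cdk4 and Cdk6) a promoter sequence was given, from RefSeq on GRCm38.p6. The windows of Cdk2, Cdk4 and Ccne1 are shown because Cdk2 and Ccne1 shared the high signal of FBS replicate 3 and Cdk4 did not. Each is the 250 bases before the annotated start, 5′ to 3′ on the gene's strand. Cdk2 is on the minus strand at chr10:128705052-128705301, Cdk4 on the plus strand at chr10:127063285-127063534, and Ccne1 on the minus strand at chr7:38107491-38107740. Capitals mark matches, on either strand, to the E2F core motifs TTCCCGC and TTGGCGC and to the E-box CACGTG, the motif that MYC with MAX binds.
Cdk2: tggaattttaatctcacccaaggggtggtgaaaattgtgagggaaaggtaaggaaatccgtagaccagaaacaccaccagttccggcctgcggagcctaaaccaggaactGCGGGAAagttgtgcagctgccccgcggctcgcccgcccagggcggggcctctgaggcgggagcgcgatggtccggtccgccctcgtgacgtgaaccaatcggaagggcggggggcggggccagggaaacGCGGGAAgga
Cdk4: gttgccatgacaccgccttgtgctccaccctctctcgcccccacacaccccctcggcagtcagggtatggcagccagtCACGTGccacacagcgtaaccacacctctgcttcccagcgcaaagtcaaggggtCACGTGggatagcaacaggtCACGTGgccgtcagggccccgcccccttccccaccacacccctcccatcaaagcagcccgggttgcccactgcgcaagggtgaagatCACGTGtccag
Ccne1: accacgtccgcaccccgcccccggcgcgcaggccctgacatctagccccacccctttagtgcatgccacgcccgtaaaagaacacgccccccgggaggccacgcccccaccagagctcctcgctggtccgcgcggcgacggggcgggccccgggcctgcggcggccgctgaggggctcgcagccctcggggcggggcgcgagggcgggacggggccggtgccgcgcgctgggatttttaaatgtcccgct

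The Cdk2 window held 2 E2F matches, read as GCGGGAA on its strand, with first bases at -140 and -10 from the start. The Cdk4 window held 4 E-boxes, at -172, -118, -98 and -11, and no E2F match. The Ccne1 window held neither. Of the windows not shown, those of Ccnd3 held neither, and that of Cdk6 held 1 E-box and no E2F match. Matches to the GC box GGGCGG numbered 5 in the Cdk2 window, 1 in the Cdk4 window and 4 in the Ccne1 window, and they are not capitalised. Among 32817 promoter windows of the same length, 5.61% held an E2F match, 6.02% an E-box and 32.7% a GC box. None of the 3 windows held the cyclic AMP response element TGACGTCA, which 1.55% of all windows held. All motifs were searched on both strands, matches to different motifs did not overlap in these windows, and a match is a description of sequence, not a measured binding site.

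Among the genes around these cyclins, the largest change past the threshold was in an inhibitor. Among 7 CDK inhibitor genes 1 rose and 1 fell, where 2.46% of the 12393 genes rose and 2.32% fell by main probe set. Cdkn1a, which encodes p21, read 10.65, 10.60 and 10.62 in FBS and 13.38 and 13.30 in ascites, a rise of 2.72 (SE 0.05, limma adjusted p = 0.00562), and its other probe set rose by 2.83. Cdkn2c, which encodes the INK4 inhibitor p18, read 12.38, 12.39 and 12.22 in FBS and 10.68 and 10.27 in ascites and was 3.62-fold lower (SE 0.15, adjusted p = 0.0215). Both passed without FBS replicate 3, and both lost the call without any other single array (adjusted p of 0.071 to 0.151 for Cdkn1a and 0.0946 to 0.156 for Cdkn2c) and with the replicate block (0.279 for each). The INK4 gene Cdkn2d gave a change of -1.39 (adjusted p = 0.0536) and Cdkn1b, which encodes p27, one of -0.12 (adjusted p = 0.845).

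Among 10 measured genes of RB relatives, E2F factors and their partners, 1 fell and 0 rose by limma's adjusted p. Of all genes by main probe set, 2.32% fell and 2.46% rose. In this list 4 had an unadjusted p below 0.05, against 24.3% of all genes by main probe set. Rbl1, which encodes the RB relative p107, was 2.31-fold lower in ascites (10.15 ± 0.17, SD, n = 3, against 8.94 ± 0.06, n = 2; adjusted p = 0.0246), and its other probe set gave -1.54 (adjusted p = 0.0561). E2f1, an activating E2F, gave a change of -0.65 (adjusted p = 0.0714) and E2f8, a repressive E2F, gave -1.89 (adjusted p = 0.0837), while Rb1 itself gave a change of 0.14. The median of the list was -0.30.

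E2F target genes of S phase were lower in ascites in 18 of 18 measured members, with a median of -0.65. Of these, 7 had an unadjusted p below 0.05, against 24.3% of all genes. Tyms, 1 of the 7, read 5.09 or less on every array, far below the array medians. By the adjusted p only 1 of the 18 fell and 0 rose, where 2.32% of all genes fell and 2.46% rose. That member was Tk1, thymidine kinase, 3.87-fold lower (11.30 ± 0.31, SD, n = 3, against 9.35 ± 0.28, n = 2; limma adjusted p = 0.0338). All 18 were also higher in FBS replicate 3 than in the mean of FBS replicates 1 and 2, by a median of 0.67, the direction seen in Ccne1, Ccne2 and Cdk2. Without that array the median was -0.41 and 8 members fell, in a comparison where 9.85% of all genes fell by main probe set. Mcm2 was then not lower (0.04), and Mcm7 hardly differed (-0.01). In cultures measured in bulk, a smaller share of cells in S phase and less transcript per cell cannot be told apart. In FBS replicate 3 the 10 epithelial and ovarian surface markers were lower than in the other FBS arrays, by a median of -0.65 with 0 of 10 above, and whether this bears on its cyclin signals was not tested.

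Of 5 measured S, G2 and M cyclin genes and their kinase, 1 fell, where 2.32% of all genes fell by main probe set. Both ascites arrays lay below all FBS arrays for all 5, as they did for 2399 of the 12393 genes. Ccna1, 1 of the 5, read 3.80 or less on every array, far below the array medians. Ccnb2, a mitotic cyclin gene, was 3.34-fold lower (11.28 ± 0.16, SD, n = 3, against 9.54 ± 0.49, n = 2; limma adjusted p = 0.0423), and Ccna2, the S phase cyclin gene, gave a change of -1.39 (adjusted p = 0.0693). Of 10 proliferation markers 5 fell and 0 rose, with a median of -1.38, where 2.32% of all genes fell and 2.46% rose. Mki67 was 3.56-fold lower (adjusted p = 0.0271), the centromere genes Cenpa 3.23-fold (0.023) and Cenpf 2.49-fold (0.0326), and Birc5, survivin, 2.90-fold (0.0475). Of the 10 markers, 3 fell with limma-trend, where Birc5 had an adjusted p of 0.0506, and 8 fell without FBS replicate 3, where 9.85% of all genes fell. Another Cenpf probe set gave a change of -0.37 (adjusted p = 0.246). Ccnd1 and Ccnd2 were thus higher in the same arrays in which the later cyclins and these markers were lower, as the plot of changes by gene list shows.

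**Figure D4:**
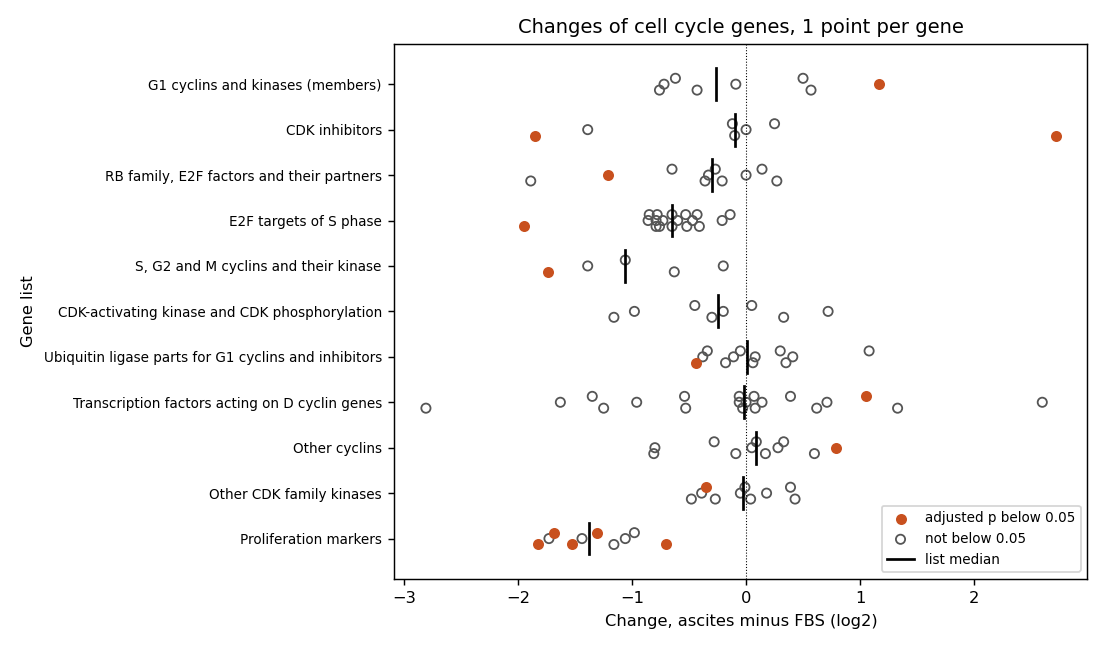
Log2 change in ascites (x axis) of the 8 members and of the genes of 10 cell cycle lists (y axis), 1 point per gene by main probe set, filled where the adjusted p is below 0.05, with a bar at each list's median. Among the members only Ccnd1 (1.17) is filled, Cdkn1a (2.72) is the point farthest to the right, and the medians of E2F targets (-0.65), later cyclins (-1.06) and proliferation markers (-1.38) lie left of 0.

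Transcription factors that act on D cyclin genes went both ways, 10 of 20 higher and 10 lower, with a median of -0.02. By adjusted p 1 rose and 0 fell, where 2.46% of all genes rose and 2.32% fell by main probe set. Klf4, an epithelial factor that can repress Ccnd1, rose 2.07-fold (11.59 ± 0.16, SD, n = 3, to 12.64 ± 0.01, n = 2; limma adjusted p = 0.0271), and its other probe set rose by 0.98. Myc, whose product binds E-boxes, read 9.52, 9.56 and 10.00 in FBS and 10.77 and 11.27 in ascites (change 1.33, adjusted p = 0.062). Fosl1, an AP-1 factor gene, gave a change of 2.60 (SE 0.82, adjusted p = 0.167), with FBS replicate 3 at 8.81 against 6.68 and 6.50. The serum-responsive factor gene Egr1 gave a change of -2.81 (SE 1.07, adjusted p = 0.226), with ascites replicates 2 and 3 at 9.11 and 11.76. Without FBS replicate 3, 3 members of this list rose and 5 fell, where 8.04% of all genes rose and 9.85% fell.

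Genes that act on the cyclin and kinase proteins were set beside all genes, of which 2.46% rose and 2.32% fell by main probe set. Among 12 measured ubiquitin ligase parts 1 fell and 0 rose: Cks1b, an adaptor for the destruction of p27, was 1.36-fold lower (13.34 ± 0.05, SD, n = 3, against 12.90 ± 0.06, n = 2; limma adjusted p = 0.04). Another Cks1b probe set gave -0.69 (adjusted p = 0.177). Fbxw7, which targets cyclin E for destruction, gave a change of 0.35 (adjusted p = 0.136). Among 8 genes of the CDK-activating kinase and of CDK phosphorylation 0 passed, and 4 had an unadjusted p below 0.05, against 24.3% of all genes, with Cdc25b, a phosphatase that activates CDKs, having the lowest p (-1.16, adjusted p = 0.0866). Without FBS replicate 3, 2 of these 8 rose, where 8.04% of all genes rose.

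Cyclins and kinases of the same families outside the 8 members served for comparison. The list of other cyclins also counts Cables1, which is not a cyclin. Over all genes by main probe set, 2.46% rose and 2.32% fell. Among the 11 measured genes of that list 1 rose, the p53 target Ccng1 (1.73-fold, limma adjusted p = 0.0271). Another Ccng1 probe set rose by 0.95, and the third gave 1.42 and did not pass. Among 10 other CDK family kinase genes 1 fell, Cdk16 (1.28-fold lower, adjusted p = 0.0374), which missed the threshold with limma-trend (adjusted p = 0.0577). The other 3 Cdk16 probe sets did not pass and gave changes of -0.45 (adjusted p = 0.106), 0.02 and 0.05. The medians of these lists were 0.09 and -0.03.

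For the 4 members whose main probe set spanned at least 1 over the arrays, the genes with the most similar course were found. The measure was the root mean square difference of signals centred on their mean, over 5 arrays and 12393 genes. The direction these genes share with the member thus follows from how they were chosen. Nearest to Ccnd1 were Trpc1 (0.0549), Zbtb18 (0.0593) and Tcea1 (0.0631), each higher in ascites by 1.13 to 1.21. Nearest to Ccne1 were Orc1 (0.121), Hsd17b7 (0.123) and Tfrc (0.172), all with FBS replicate 3 highest. Nearest to Ccne2 were Etv4 (0.137), Orc1 (0.143) and Rnd2 (0.149). Orc1, a subunit of the origin recognition complex, read 6.73, 6.67 and 8.07 in FBS and 6.40 and 6.53 in ascites. Nearest to Cdk2 were Il1rn (0.0276), Iqgap3 (0.036) and Topbp1 (0.0506), the last a replication and checkpoint gene, with FBS replicate 3 above the mean of the other FBS arrays by 0.68 to 0.81.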

How the data were processed

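Total RNA of 5 ID8 samples was measured on an Affymetrix mouse array. Per the submitters' processing notes, Affymetrix Expression Console was used; for its version, summarisation and background correction nothing was found (not given in the sources used here). Values were deposited as log2 signals, as judged from their range, with array medians of 7.4 to 7.47, and were used as deposited, with no filter.

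Of 22690 probe sets, 64 controls were left out. GEO's platform annotation named 1 gene for 20380, several for 691 and none for 1555. Of the first, 20351 were found in RefSeq (GRCm38.p6), with 0 symbols changed. The media were compared by limma 3.58.1 (R 4.3.3; lmFit, then eBayes, no covariate, two-sided, threshold 0.05, with 3 residual and 1.31 prior degrees of freedom). The number of arrays limits the precision. The fit was tested on simulated data.

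Named genes were all members and, from each of 10 lists, at most 4 genes past the threshold, by size of change, or else the one with the lowest p; other genes, and the differences between D cyclins, were chosen after their values were seen. Members and lists were chosen with earlier results of these data known. The alternatives were limma-trend, array weights, quantile normalization, a filter on dim probe sets, 1 probe set per gene, a replicate block, leaving out each array, and averaging FBS replicates 1 and 2.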

Additional observations from a re-analysis of the deposited data

How the results depend on the processing

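The 3 member probe sets past the threshold, all of Ccnd1, and the 982 probe sets past it in all depended on the arrays used. Both counts were 0 by limma without FBS replicate 1, FBS replicate 2, ascites replicate 2 or ascites replicate 3 (5 to 11 members and 3474 to 4852 probe sets at an unadjusted p below 0.05), and they were 10 members (8 risen, 2 fallen) and 3559 in all without FBS replicate 3. With FBS replicates 1 and 2 averaged both were 0, with 6 members and 3680 probe sets at an unadjusted p below 0.05. The Ccnd1 probe sets stayed below an unadjusted 0.05 in each of these fits, 3 of 3. Array weights gave 11 members (10 risen, 1 fallen) of 3728. The weights were 2.47, 3.46 and 0.214 for FBS replicates 1, 2 and 3, and 0.739 for each ascites array. That fit thus also leaned on the nearly alike FBS replicates 1 and 2. With 1 probe set per gene the count was 1 of 654, where fewer features are tested. With the lowest 25% left out, 4 members passed of 1350 in all: the 3 Ccnd1 probe sets, which rose, and that of Ccnd3, which fell. The Ccnd1 probe sets alone passed with limma-trend (3 members of 745) and with quantile normalization (3 of 1342). The cause of the other moves was not tested.

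With the replicate number as a block, 0 members and 0 of all probe sets passed (5 and 3417 at an unadjusted p below 0.05), and the Ccnd1 adjusted p was 0.279. The numbers 2 and 3 were not shown to pair the arrays: the difference between replicates 2 and 3 correlated by 0.0458 between the groups over probe sets.

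Of 206 values of member probe sets under alternatives, 167 kept direction and side of the threshold, 18 lost it, 16 gained it and 5 reversed. All 18 losses were of Ccnd1, the only member past the threshold. Its probe sets 1417419_at and 1417420_at each passed in 5 of 11 alternatives, and 1448698_at in 6 of 12. Of 168 values of 14 other named genes, 80 lost the threshold and 0 reversed. Those 5 were small: Ccne2 gave 0.01 with array weights and 0.04 without FBS replicate 3, and Cdk4 (1422439_a_at, 1422440_at and 1422441_x_at) gave 0.09, 0.07 and 0.04 without ascites replicate 2. Leaving out 1 array at a time, Ccne2 ranged from -0.73 to 0.04, and the Cdk4 probe sets, in that order, from -0.23 to 0.09, from -0.34 to 0.07 and from -0.21 to 0.04. No detection call limits dim genes such as Cdk6 and Ccne1.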
